A study of Homo sapiens with 2 samples.

Results

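The genes described here are 8 basement membrane and matrix genes, LAMB3, LAMA3, HSPG2, COL4A5, COL1A1, SPARC, CTGF (now named CCN2) and PLAU. They were taken by symbol from a deposited table of 2007 genes that the authors listed as differing between the 2 libraries of the study, and all 8 were found there. RNA was sequenced from HT-29, an established human colon adenocarcinoma epithelial line, with 1 library for a scramble control and 1 for knockdown of the adhesion receptor GPR126 (ADGRG6) by RNA interference. The labels give no hairpin sequence, clone, culture or time. The library totals, derived from the deposited values, were 5753320 reads for the scramble control and 6010192 for the knockdown. They need not equal the number of reads sequenced. As each group is a single library, no difference below has a replicate check, no test was run, and every interval is a 95% interval for counting error alone. Because the table was made from the same contrast, the members' differences are a description of these libraries, and "higher" and "lower" mean in the knockdown library relative to the scramble library.

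The basement membrane is a thin sheet of matrix on which epithelial cells rest. It is built from self-assembling networks of laminins and of type IV collagen, which are joined by nidogens and by the heparan sulfate proteoglycan perlecan. Epithelial cells hold on to it largely through laminin-332, which contains the chains encoded by LAMA3 and LAMB3 and anchors hemidesmosomes. Type IV collagen and laminin-211 are known ligands of GPR126, so the genes below include relatives of its ligands.

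In the knockdown library 7 of the 8 genes were higher by 2-fold or more, and SPARC was lower by 2-fold or more. Of all 2007 listed genes, 33.2% were higher and 66.7% lower by that limit. By a 4-fold limit 3 of the 8 genes were higher, as were 8.67% of listed genes, and 1 was lower, as were 8.57%. Counting intervals that lay wholly beyond 2-fold were found for 5 higher members (16.4% of listed genes) and for 1 lower member (33.1%). The genes were chosen on this contrast, so nothing is read from these counts. Their median log2 ratio, computed with 0.5 reads added to each count, was 1.93, beside -1.16 over all listed genes. Together the 8 genes took 383 scramble reads, which is 66.6 per 1e6 reads of the library (RPM), and 1567 knockdown reads, which is 261 RPM. In such bulk RNA, a change in the number of cells that express a gene and in the RNA per cell cannot be told apart. LAMB3 supplied 35.0% of those reads in the scramble library (Clopper-Pearson interval 30.2 to 40.0) and 55.6% in the knockdown library (53.1 to 58.1). Without LAMB3 the sum was 249 scramble and 696 knockdown reads, a sum 2.68-fold higher (2.31 to 3.10). LAMB3 had the highest ratio of the 8 genes, so its share had to rise. The sums hold only genes chosen on this contrast, so the share and the sums are descriptions alone.

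**Figure D1:**
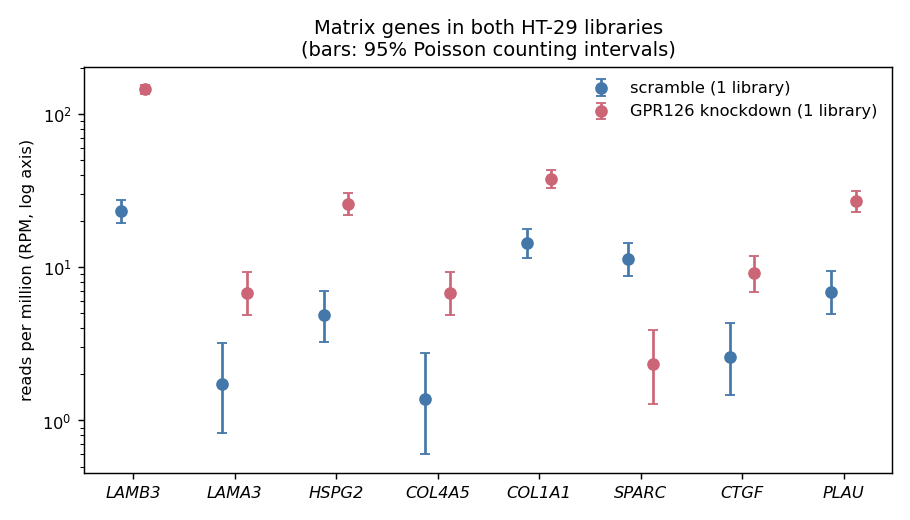
RPM of the 8 matrix genes on a log axis in the scramble library (blue) and the GPR126 knockdown library (red), 1 library each, with bars for 95% Poisson counting intervals. SPARC alone was lower in the knockdown library, and the intervals of the libraries do not overlap for any of the 8 genes. The deposited table holds only genes listed as differing, which favours such separation, so nothing is read from it.

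GPR126 itself was read 68 times in the scramble library and 2 times in the knockdown library. These are 11.8 and 0.33 RPM, so the library labelled as the knockdown held less of the targeted transcript, 35.5-fold lower with an interval of 9.46 to 299.

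Among the laminin chains, LAMB3, which encodes the beta-3 chain, had the highest ratio of the 8 genes. It had 134 reads (23.3 RPM) in the scramble library and 871 reads (145 RPM) in the knockdown library. That is 6.22-fold higher (5.18 to 7.52), a log2 ratio of 2.63. LAMA3, which encodes the alpha-3 chain, had 10 reads (1.74 RPM) and 41 reads (6.82 RPM). It was 3.92-fold higher, but with 10 scramble reads its interval ran from 1.93 to 8.79 and so reached below 2-fold.

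LAMB3 held most of the LAMA3 and LAMB3 reads in both libraries, a share that does not depend on how the libraries are scaled. It was 93.1% of the reads of the pair in the scramble library (87.6 to 96.6) and 95.5% in the knockdown library (93.95 to 96.8), intervals that overlap. With 10 scramble reads of LAMA3, such overlap cannot show that the balance of the pair was kept. Of the 11 laminin chain genes examined, the other 9 were not listed, among them LAMA2, LAMB1 and LAMC1, which form laminin-211.

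Per kilobase of coding sequence, the levels of both chains were far from equal. With the longest coding transcript of GENCODE 29, LAMB3 had a level of 6.62 RPM per kb in the scramble library and 41.2 in the knockdown library. LAMA3 had 0.17 and 0.68 RPM per kb over its 9999-base coding sequence. The gene also has a shorter form that starts within the gene, and with its 5004-base coding sequence the levels were 0.35 and 1.36. Which form was transcribed, and whether reads came from the whole length of the transcripts, is not known from the labels or the table.

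LAMA3 and LAMB3 were higher together, so their annotated promoter windows are shown. The RefSeq windows (GRCh38.p14) run from 250 bases before an annotated start to 50 after it. LAMB3 has 3 such windows and LAMA3 1, which is that of the shorter form. Capitals mark matches to the AP-1 motif TGANTCA, where N is any base, searched on both strands. The LAMB3 window shown is the only one of its 3 with a match and lies at chr1:209651325-209651624 on the minus strand. The LAMA3 window lies at chr18:23872770-23873069 on the plus strand.
LAMB3: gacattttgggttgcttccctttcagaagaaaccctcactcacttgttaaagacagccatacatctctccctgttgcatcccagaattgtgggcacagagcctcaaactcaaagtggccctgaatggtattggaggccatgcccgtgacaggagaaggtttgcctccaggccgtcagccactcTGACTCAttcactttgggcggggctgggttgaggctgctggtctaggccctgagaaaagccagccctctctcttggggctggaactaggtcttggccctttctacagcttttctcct
LAMA3: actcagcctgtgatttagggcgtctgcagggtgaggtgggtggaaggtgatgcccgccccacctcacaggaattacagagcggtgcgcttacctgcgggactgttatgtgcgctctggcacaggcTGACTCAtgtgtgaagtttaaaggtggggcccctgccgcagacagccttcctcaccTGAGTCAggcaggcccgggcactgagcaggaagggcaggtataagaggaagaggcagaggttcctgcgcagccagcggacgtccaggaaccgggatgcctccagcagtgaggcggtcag
The LAMB3 match began at position -67 from its start, and the LAMA3 matches began at positions -125 and -69. Of all 35116 windows of the annotation, 7.71% hold this motif, and of the 2366 windows of listed genes 4.48% do. A match of this length describes the letters only, and neither binding nor the start used in these cells was measured.

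HSPG2 encodes perlecan, the large proteoglycan that links the laminin and collagen networks. It had 28 scramble reads (4.87 RPM) and 156 knockdown reads (26.0 RPM). At 5.33-fold higher (3.55 to 8.29) it came next to LAMB3 among the 8 genes, and the intervals of these 2 genes overlap. Because its coding sequence is 13173 bases long, its level per kb was low, at 0.37 RPM per kb in the scramble library and 1.97 in the knockdown library.

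Of the 6 type IV collagen genes, COL4A5 was the only one listed. It encodes the alpha-5 chain, which assembles with the alpha-3 and alpha-4 chains or with alpha-6, and its loss causes Alport syndrome. The counts were 8 reads (1.39 RPM) and 41 reads (6.82 RPM). The gene was 4.91-fold higher, and the interval of 2.27 to 12.1 was the widest of the 8. COL4A1 and COL4A2, which form the type IV collagen found in nearly all basement membranes, were not listed, and neither was COL4A6, which is transcribed from the opposite side of the COL4A5 promoter. Apart from COL4A5, COL1A1 and COL17A1, the collagen genes of the lists used here were not listed, 19 of 19 in the group of other collagens included.

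COL1A1 encodes the alpha-1 chain of type I collagen, a fibrillar collagen of connective tissue that fibroblasts make in quantity. It had 83 reads (14.4 RPM) in the scramble library and 227 reads (37.8 RPM) in the knockdown library. It was 2.62-fold higher (2.03 to 3.41), the lowest ratio of the 7 genes that were higher. COL1A2, which encodes its partner chain in type I collagen, was not listed, nor were the other 9 fibrillar collagen genes. COL1A1 was also the only listed gene of 14 fibroblast markers; the other 13, COL3A1, DCN, LUM and PDGFRB among them, have no value in the table, so their levels in either library are unknown. None of 11 endothelial markers and none of 17 colon epithelial markers was listed, and the labelled cell type could not be checked against them. The part of other cell types in the result was not tested.

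**Figure D2:**
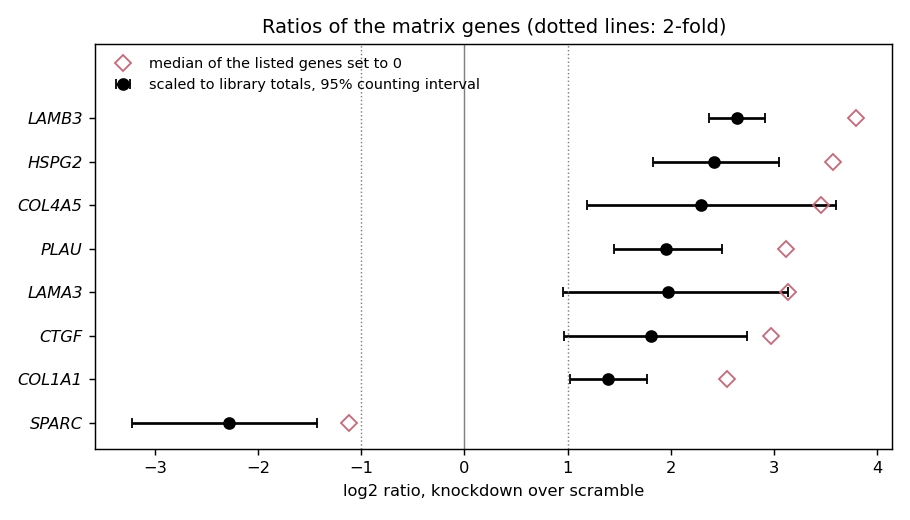
The log2 ratio of each gene, knockdown over scramble, with libraries scaled to their totals (black points, bars for 95% counting intervals) and with the median of the listed genes set to 0 (red diamonds). All 7 higher genes stayed higher and SPARC stayed lower under both scalings.

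SPARC, which encodes a collagen-binding matricellular glycoprotein also called osteonectin, went the other way. It had 65 scramble reads (11.3 RPM) and 14 knockdown reads (2.33 RPM). It was 4.85-fold lower (2.69 to 9.36), a log2 ratio of -2.24. Set against COL1A1 alone, which needs no scaling of the libraries, SPARC held 43.9% of the reads of the pair in the scramble library (35.8 to 52.3) and 5.81% in the knockdown library (3.21 to 9.55). As both genes were listed for differences in opposite directions, a fall in this share was set by the selection and adds no support. In the scramble library SPARC had the highest level per coding length of the 8 genes, at 12.4 RPM per kb, and in the knockdown library it had 2.56. Untranslated bases are left out of this length, so the order need not hold per whole transcript. In RPM of the scramble library, LAMB3 (23.3) and COL1A1 (14.4) stood above SPARC.

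CTGF encodes connective tissue growth factor, a secreted matricellular protein of the CCN family. It had 15 reads (2.61 RPM) in the scramble library and 55 reads (9.15 RPM) in the knockdown library. It was 3.51-fold higher, with an interval of 1.96 to 6.69 that reached just below 2-fold. Its relative CYR61 (CCN1) had almost the same counts, 16 and 63 reads, and was 3.77-fold higher (2.15 to 6.99). Of 36 matricellular and glycoprotein genes, SPARC, CTGF and CYR61 were the 3 listed; fibronectin (FN1), tenascin C (TNC) and thrombospondin 1 (THBS1) were not.

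CTGF and CYR61 are textbook targets of the transcriptional coactivator YAP, which acts through TEAD factors. Of 28 YAP and TEAD genes in the list used here, 6 were listed and all 6 were at least 2-fold higher, as were 33.2% of all listed genes. The deposited table is limited to 2-fold and the list was written with earlier results known, so nothing is read from this count. AMOTL2, an angiomotin family scaffold, had 218 and 536 reads (2.35-fold higher, 2.01 to 2.77), and NT5E, the ecto-enzyme CD73, had 140 and 340 reads (2.32-fold higher, 1.90 to 2.85). The median log2 ratio of the 6 was 1.22, beside -1.16 over all listed genes, and the other 22 genes, ANKRD1 and YAP1 among them, were not listed.

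The CTGF promoter window is shown because it holds 3 matches to the TEAD motif GGAATG, searched on both strands and marked in capitals. It lies at chr6:131951323-131951622 on the minus strand of GRCh38.p14.
CTGF: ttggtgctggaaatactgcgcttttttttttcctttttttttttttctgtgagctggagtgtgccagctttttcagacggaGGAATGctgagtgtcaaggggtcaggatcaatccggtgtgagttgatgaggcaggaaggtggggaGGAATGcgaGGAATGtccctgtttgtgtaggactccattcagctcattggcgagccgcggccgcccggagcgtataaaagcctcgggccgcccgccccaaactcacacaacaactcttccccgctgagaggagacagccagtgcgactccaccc
The matches began at positions -169, -104 and -95 from the start. At least 1 match to this motif is present in 14.03% of all windows and in 10.99% of those of listed genes. The share of windows with 3 matches was not computed, and binding was not measured. Among the 10 windows of 7 of the genes (COL1A1 is named only), a TEAD match was present in that of CTGF and, once, on the opposite strand, in that of SPARC, the gene that was lower.

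**Figure D3:**
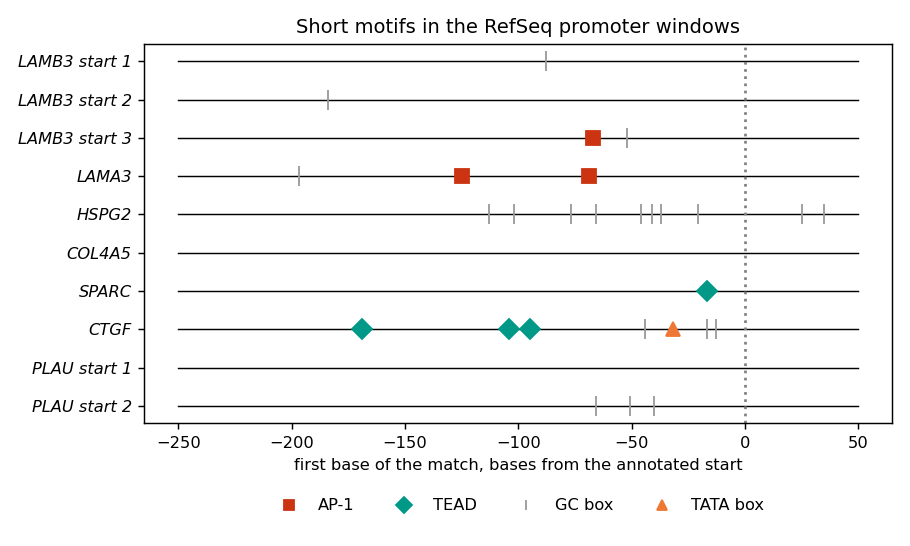
Positions of short motifs in the 10 RefSeq promoter windows of 7 genes, in bases from the annotated start (dotted line), with 1 line per window. AP-1 matches appear in the windows of LAMA3 and of the third LAMB3 start, and TEAD matches in those of CTGF and SPARC.

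Besides AP-1 and TEAD, 3 other motifs were searched on both strands. The GC box GGGCGG was present in 7 of the 10 windows, from 5 of the 7 genes, most often in HSPG2 with 10 matches, in 45.0% of all windows and in 66.9% of the windows of listed genes. The first and second LAMB3 windows overlap, and their GC box matches, at -88 and -184, are the same site counted in both. The TATA box TATAAA was found only in the CTGF window, at position -32, and is in 11.5% of all windows and 6.55% of those of listed genes. The cyclic AMP response element half-site TGACGT was in none of the 10 windows and is in 7.98% of all windows and 11.6% of those of listed genes. The COL4A5 window and the first PLAU window held no match to any of the 5 motifs. Matches of different motifs did not overlap in these windows, whereas some GC box matches overlapped each other in HSPG2 and CTGF.

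PLAU encodes urokinase, the secreted serine protease that turns plasminogen into plasmin and so starts breakdown of matrix around the cell. It had 40 reads (6.95 RPM) in the scramble library and 162 reads (27.0 RPM) in the knockdown library. It was 3.88-fold higher (2.73 to 5.63). Per coding length, with untranslated bases left out, it stood second of the 8 genes in the knockdown library, at 20.8 RPM per kb after LAMB3.

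Besides PLAU, 2 other genes of the plasminogen system were listed. Of 14 genes examined, 3 were listed, 2 higher and 1 lower (33.2% and 66.7% of all listed genes). PLAU is among the 2 higher, so nothing is read from this count. PLAUR, the urokinase receptor, had 147 reads (25.6 RPM) and 348 reads (57.9 RPM) and was 2.27-fold higher (1.86 to 2.77). The plasminogen-binding protein S100A10 was lower, with 1737 and 667 reads (2.72-fold, 2.49 to 2.98). With the median of the listed genes set to 0, the log2 ratio of S100A10 was -0.28. PLAU made up 21.4% of the reads of PLAU and PLAUR in the scramble library (15.7 to 28.0) and 31.8% in the knockdown library (27.7 to 36.0), and these intervals just overlap.

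**Figure D4:**
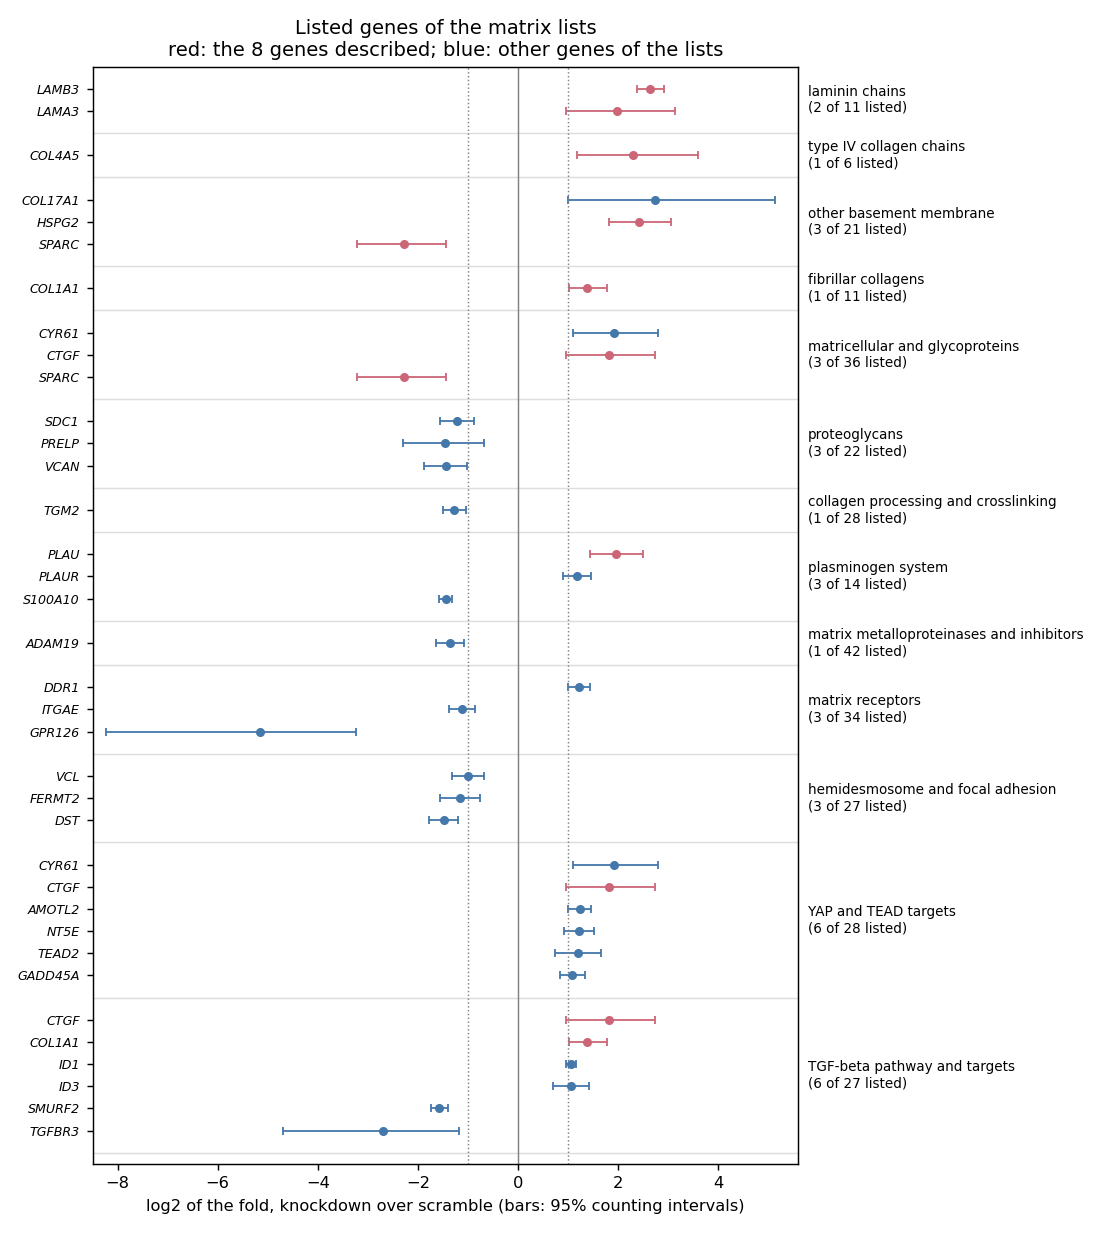
Log2 of the fold of every examined gene listed in 13 matrix lists, knockdown over scramble, with 95% counting intervals, grouped by list. The 8 genes described are red and the other listed genes blue, the numbers at the right give how many genes of each list were listed, and a gene that belongs to several lists appears in each.

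Beyond the members, the surrounding matrix genes were listed in both directions. The matrix lists held 316 distinct genes, of which 31 were listed. Leaving out the 8 members and GPR126, 22 were listed, 10 higher and 12 lower by 2-fold or more (33.2% and 66.7% of all listed genes). As some genes are not reported here, this split covers the examined genes only. The lower side depended on scaling to library totals: with the median of the listed genes set to 0, 3 of the 12 (ITGAE, FERMT2 and VCL) had ratios just above 0 and 1 (TGFBR3) was still lower by 2-fold or more. The list of 22 proteoglycans, which holds neither perlecan (HSPG2, higher as given above) nor every known proteoglycan, had 3 genes listed, and these 3 were lower. Versican (VCAN) had 167 and 64 reads (2.73-fold lower, 2.03 to 3.70), PRELP had 50 and 19 reads (2.75-fold lower, 1.59 to 4.94), and the cell-surface proteoglycan syndecan 1 (SDC1) had 231 and 104 reads (2.32-fold lower, 1.83 to 2.95). Of 28 collagen processing and crosslinking genes, the transglutaminase TGM2 alone was listed (515 and 223 reads, 2.41-fold lower, 2.06 to 2.84). Of 42 matrix proteases and their inhibitors, ADAM19 alone was listed (373 and 153 reads, 2.55-fold lower, 2.10 to 3.09), and no MMP or TIMP gene was.

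Receptor and anchor genes showed no single direction. Besides GPR126, 2 of 34 genes were listed from a list of matrix receptors and integrins, not all of which need bind matrix. The collagen receptor kinase DDR1 had 247 and 602 reads and was 2.33-fold higher (2.01 to 2.72), and the integrin gene ITGAE was 2.17-fold lower (359 and 173 reads, 1.80 to 2.61). The genes of the hemidesmosomal laminin-332 receptor, ITGA6 and ITGB4, were not listed. COL17A1, the transmembrane collagen of hemidesmosomes, had 3 and 21 reads and was 6.70-fold higher, with an interval of 2.001 to 35.1. The hemidesmosome and focal adhesion list had 3 of 27 examined genes listed. Dystonin (DST), a linker of hemidesmosomes to keratin, was 2.80-fold lower (370 and 138 reads, 2.30 to 3.43), kindlin-2 (FERMT2) 2.23-fold lower (162 and 76 reads, 1.69 to 2.96) and vinculin (VCL) 2.0002-fold lower (247 and 129 reads, 1.61 to 2.49). With the median of the listed genes at 0, the log2 ratios were 0.046 for ITGAE, 0.0097 for FERMT2 and 0.16 for VCL.

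COL1A1 and CTGF also belong to a list of 27 examined genes of the TGF-beta pathway and its targets. Of these, 6 were listed, 4 higher and 2 lower (33.2% and 66.7% of all listed genes), with a median log2 ratio of 1.05. COL1A1 and CTGF, which were chosen on this contrast, are among the 4 higher, so nothing is read from this count or median. The 2 that were lower were TGFBR3, the co-receptor betaglycan (25 and 4 reads, 6.53-fold, 2.25 to 25.8), and the ubiquitin ligase SMURF2 (1115 and 391 reads, 2.98-fold, 2.65 to 3.35). Outside that list, SMAD1, which carries bone morphogenetic protein signals, was lower (14.1 and 5.99 RPM). Its log2 ratio of -1.22 was near the median of -1.16 over all listed genes. The bone morphogenetic protein gene BMP4 (62.7 and 128.8 RPM) was higher. So was GDF15 (128.1 and 1080 RPM), which is not counted here as a gene of this pathway. These 3 were named after their values were seen.

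The authors' deposited table also carries gene ontology terms. Every one of the 8 genes has a term with the words extracellular region, which 99 examined genes carry, 56 of them higher and 43 lower by 2-fold or more. Over all listed genes the shares were 33.2% higher and 66.7% lower by that limit. Terms with the words basement membrane were attached to 8 examined genes, 5 of them higher and 3 lower. Besides LAMA3, LAMB3, COL17A1, SPARC and DST, these were VEGFA (137 and 720 reads, 5.03-fold higher, 4.19 to 6.08), ERBB2IP, a hemidesmosome-associated scaffold (165 and 393 reads, 2.28-fold higher, 1.90 to 2.75), and LAD1, an anchoring filament protein (409 and 204 reads, 2.09-fold lower, 1.77 to 2.49). LAD1 had a log2 ratio of 0.095 once the median of the listed genes was set to 0. HSPG2 carries the term basal lamina instead. LAMB3, LAMA3 and CTGF share the term epidermis development, which was looked at after these values were seen. It was attached to 12 examined genes, 10 of them higher and 2 lower (33.2% and 66.7% of all listed genes), with a median log2 ratio of 1.71. LAMB3, LAMA3 and CTGF are among the 10, so nothing is read from this count.

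**Figure D5:**
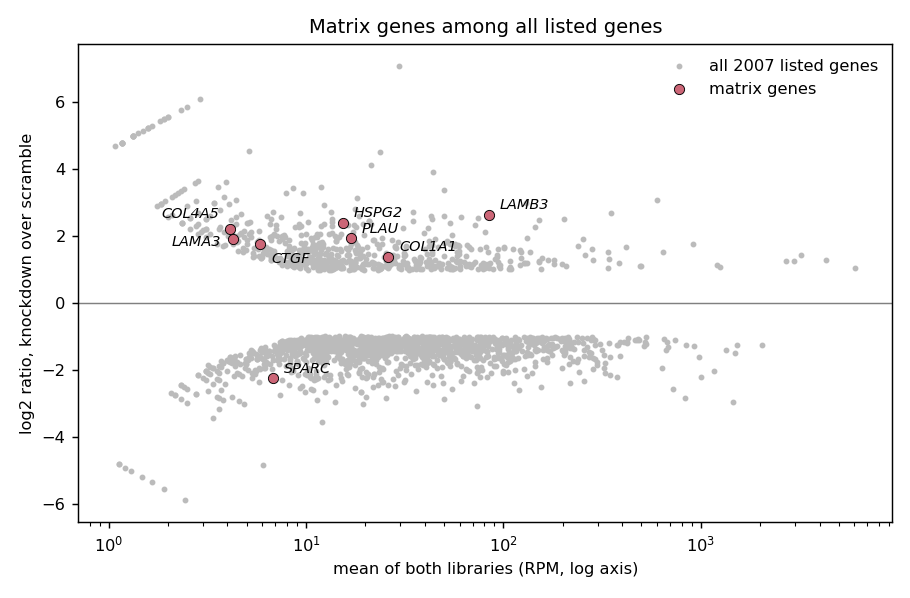
Log2 ratio, knockdown over scramble with 0.5 reads added, against the mean RPM of both libraries (log axis) for all 2007 listed genes (grey) and the 8 matrix genes (red). The empty band around 0 is the 2-fold limit of the deposited table, and the straight lines of points at the left are genes with few or no reads in 1 library.

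Ranked by log2 ratio from the highest of the table, where LAMB3 stood at place 71, HSPG2 stood at place 101, COL4A5 at 130, PLAU at 182, LAMA3 at 185, CTGF at 216 and COL1A1 at 364. SPARC stood at place 92 from the lowest. The order among PLAU, LAMA3, CTGF and COL4A5 is not resolved, since each of their intervals holds the ratios of the other 3. For each gene, the gene outside the group with the closest levels in the 2 libraries was found by the distance in log2 RPM. LAMB3 was nearest to DUSP5, a phosphatase of MAP kinases with 124 and 760 reads (distance 0.23). CTGF was nearest to the cyclin-dependent kinase inhibitor CDKN2B (16 and 55 reads, 0.090), HSPG2 to WDR45 (29 and 161 reads, 0.067) and PLAU to ATXN1 (40 and 166 reads, 0.035). SPARC had exactly the counts of SUSD1 (distance 0), COL1A1 was nearest to ZNF786, LAMA3 to NBR2 and COL4A5 to ZNF204P, at distances from 0.035 to 0.036. With 2 libraries such likeness is a matter of level alone.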

How the data were processed

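Whole-number counts were deposited by the authors, per the file headers, for genes they had selected, with an absolute log2 ratio of at least 1 and an FDR of at most 0.000999 in the same table. The column headed TPM, also deposited by the authors, is an RPM value: it equals count over library total times 1e6 within 0.005, and a count of 0 is entered as 0.01. Library totals were derived from it. The authors' deposited p-value and FDR were not used. The aligner, counter, strand setting and build are stated neither in the labels nor in the table.

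Folds came from counts scaled to library totals, with Clopper-Pearson 95% intervals conditional on the summed count. Log2 ratios had 0.5 reads added. For folds a count of 0, which no member had, was set at 3. No gene fell under 1 RPM in both libraries. Members and the 17 gene lists were chosen with earlier results of these data known. SMAD1, BMP4 and GDF15 were named after their values were seen. Other genes are named by rule: the 4 largest ratios of each list, genes with basement membrane ontology terms, and each member's nearest gene in level, provisional names left out. Some genes that these rules take are left out of the lists, ontology terms and their counts, and are not reported here. List genes were matched through RefSeq names of the Entrez numbers (2004 of 2007 matched), and coding lengths came from GENCODE 29. The software was Python 3.11.15 (numpy 2.4.6, pandas 2.3.3, scipy 1.17.1, matplotlib 3.10.9). Alternatives changed the pseudocount, scaling, floor, unit or fold limit.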

Additional observations from a re-analysis of the deposited data

How the results depend on the processing

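No paired analysis was possible because the design holds a single library on each side, which also leaves none to omit. The direction of all 8 genes was the same under each pseudocount, scaling, floor and unit tried. No scaling tried could reverse a member. Each raised every ratio, and SPARC, the only lower member, had a log2 ratio of -2.24, further from 0 than the largest shift. Other listed genes closer to the 2-fold limit did change sign with the median at 0, among them ITGAE, FERMT2, VCL and LAD1. Setting the median of the listed genes to 0, or scaling by their trimmed mean or upper quartile, removed a log2 shift of -1.16, -1.005 or -0.71 and so raised every ratio, since these scalings are computed on listed genes, most of which were lower. In that order the members' median became 3.09, 2.94 and 2.64, SPARC became -1.08, -1.23 and -1.53, and the genes at least 2-fold lower went from 1339 to 122, 170 and 301. With 5 reads added, the members' median fell to 1.66. A 4-fold limit left 3 members higher (LAMB3, HSPG2 and COL4A5) and 174 higher and 172 lower listed genes. Intervals wholly beyond 2-fold left 5 members higher, without LAMA3 and CTGF, and 329 higher and 664 lower listed genes. Depth limits LAMA3, COL4A5 and CTGF, with 8 to 15 scramble reads.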
